A study of Mus musculus with 10 samples.

Results

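The genes described here encode the core of nonhomologous end joining, the pathway that rejoins the ends of a broken chromosome without a template. They were taken as a list of 8 by symbol (Xrcc4, Xrcc5, Xrcc6, Lig4, Nhej1, Dclre1c, Poll and Polm), and each was read from an Affymetrix probe set annotated to that gene alone. Such a probe set was found for 7 of the 8, 1 per gene, among 18820 genes in all; Dclre1c, which encodes the Artemis nuclease that trims broken ends, had none and was not analysed here. The arrays came from teratomas, mixed-tissue tumours that embryonic stem cells form in a host. All of the stem cells were J1 cells of the Sv/129 strain that lacked mouse Vhl (Vhl-/-) and carried a human VHL cDNA, and the tumours grew under the flank skin of female nu/nu mice whose age is not given in the sources used here. The groups were 4 arrays with P81S VHL, labelled resistant to apoptosis, 3 with R167Q VHL and 3 with wildtype VHL, both labelled apoptotic. The wildtype group is thus a rescued null line and not an unmodified one. The design text counts the P81S arrays as 2 replicates of each of 2 clones without saying which arrays share a clone, and the promoter that drives the cDNA is not given in the sources used here. The VHL protein recognises hypoxia-inducible factors for ubiquitination when oxygen is present, and the series title names the ATM-mediated DNA damage response among its subjects.

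End joining begins when a ring of Ku70 and Ku80 (Xrcc6 and Xrcc5) threads onto a DNA end and draws in the kinase DNA-PKcs and the nuclease Artemis. DNA polymerases lambda and mu (Poll and Polm) fill gaps, and ligase IV (Lig4), held by its partner XRCC4 (Xrcc4) and helped by XLF (Nhej1), seals the break. The pathway works in all phases of the cell cycle, unlike homologous recombination, which copies from the sister chromatid after replication. Mouse embryos without Xrcc4 or Lig4 lose newborn neurons to apoptosis, and lymphocytes need the pathway to assemble antigen receptor genes.

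In P81S tumours some end joining genes passed the test and others did not, while 6 of the 7 differences from wildtype were negative. Pairs of the genes compared directly, given below, did not pass after adjustment. With so few arrays that test could hardly pass, so it does not decide whether the genes changed unequally. Both Ku genes and Nhej1 were lower in P81S than in wildtype tumours, by 1.81-fold to 2.29-fold, while the ligase pair Xrcc4 and Lig4 and the polymerase genes Poll and Polm did not pass the test. Of 7 measured genes, 3 fell and 0 rose at an adjusted p under 0.05 (limma over all genes). Among all 18820 genes, 17.5% fell, 17.2% rose and 34.7% changed in either direction in the same comparison. The median log2 difference was -0.30 over the 7 genes and 0.01 over all genes. In R167Q tumours 0 of the 7 genes passed against wildtype (limma; also 0 at an unadjusted p under 0.05), where 0.0266% of all genes fell, 0.0638% rose and 0.0903% changed in either direction. Values below are deposited log2 expression values, in which a difference of 1 is 2-fold, with SDs beside group means and standard errors of the model beside differences.

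Xrcc5 encodes Ku80. Its 4 P81S tumours, in replicate order, had log2 values of 9.03, 9.06, 8.92 and 8.66, its R167Q tumours 9.79, 9.91 and 9.69, and its wildtype tumours 9.93, 10.04 and 10.37. Every P81S array lay below every R167Q and every wildtype array, and the R167Q arrays lay just below the wildtype ones without overlap. The group means were 8.92 ± 0.18 (SD, n = 4) in P81S, 9.79 ± 0.11 (n = 3) in R167Q and 10.11 ± 0.23 (n = 3) in wildtype. Xrcc5 fell 2.29-fold in P81S against wildtype (log2 -1.20 ± 0.14, limma adjusted p = 0.000113) and 1.84-fold against R167Q (log2 -0.88 ± 0.14, limma adjusted p = 0.00162). R167Q against wildtype gave a log2 difference of -0.32 ± 0.15 (limma adjusted p = 0.517). In bulk tumour RNA, fewer cells of a type that expresses a gene and less of its RNA per cell cannot be told apart.

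For Xrcc6, which encodes Ku70, the log2 values were 7.24, 7.82, 7.60 and 7.52 in P81S, 8.27, 7.96 and 8.30 in R167Q, and 8.39, 8.32 and 8.89 in wildtype. Its arrays fell in the same order of groups as those of Xrcc5, with no overlap between P81S and either other genotype. It fell 1.98-fold in P81S against wildtype, to 7.55 ± 0.24 (SD, n = 4) in P81S, against 8.53 ± 0.31 (SD, n = 3) in wildtype (log2 -0.99 ± 0.18, limma adjusted p = 0.0018). Against R167Q (8.17 ± 0.19, n = 3) the fall was 1.55-fold (log2 -0.63 ± 0.18, limma adjusted p = 0.0309). The adjusted p of that second call rose above 0.05 when single arrays were left out, to 0.0506, 0.0578 or 0.0604 without P81S replicate 1, 3 or 4 and to 0.115 or 0.111 without R167Q replicate 1 or 3. The log2 difference itself stayed between -0.74 and -0.53 when any single array was left out. Xrcc6 in R167Q was 1.28-fold lower than in wildtype and did not pass (log2 -0.36 ± 0.20, limma adjusted p = 0.597).

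Nhej1 encodes XLF, a filament-forming relative of XRCC4. It read 7.31, 7.36, 6.74 and 6.94 log2 in P81S, 7.94, 7.49 and 7.47 in R167Q, and 7.99, 7.69 and 8.14 in wildtype. The P81S arrays were the 4 lowest of the 10, and R167Q and wildtype overlapped. Nhej1 fell 1.81-fold in P81S against wildtype, to 7.09 ± 0.30 (SD, n = 4) in P81S, against 7.94 ± 0.23 (SD, n = 3) in wildtype (log2 -0.86 ± 0.20, limma adjusted p = 0.00627). P81S replicates 3 and 4 were the lowest pair, and the call ended without them (log2 -0.61, adjusted p = 0.0595). Against R167Q (7.63 ± 0.26, n = 3) the difference was -0.55 ± 0.20 and missed the threshold (limma adjusted p = 0.0729); it passed without P81S replicate 1 (adjusted p = 0.0467) and without P81S replicates 1 and 2 (adjusted p = 0.0166).

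**Figure D1:**
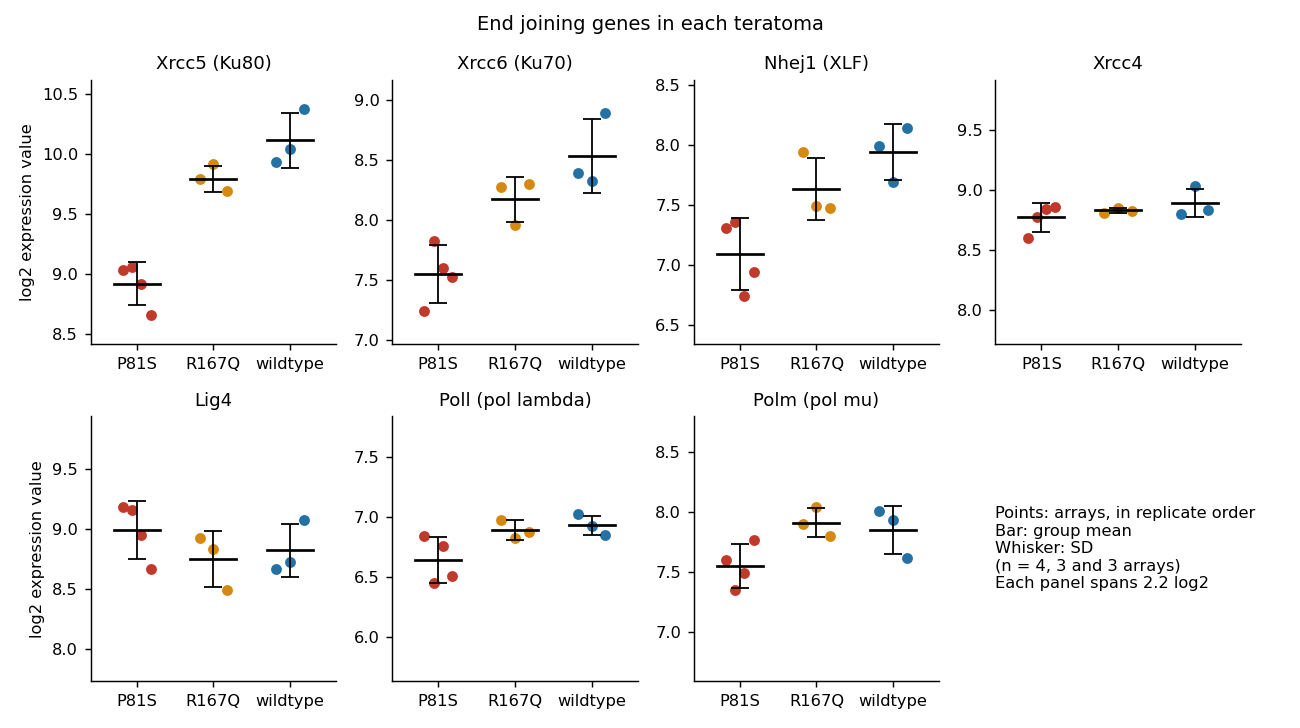
Log2 expression values of the 7 measured end joining genes (vertical axes, all of the same height) in the P81S, R167Q and wildtype arrays; points are arrays in replicate order, bars are group means and whiskers are SDs (n = 4, 3 and 3). For Xrcc5, Xrcc6 and Nhej1 all 4 P81S arrays lie below all wildtype arrays, while for Xrcc4 and Lig4 the groups overlap.

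The promoters of the genes that fell together are shown beside that of Xrcc4, whose level did not pass in any comparison, so that their sequences can be set against the measured difference. They are RefSeq windows of 300 bases on GRCm38.p6, 250 before and 50 after the annotated start, given 5′ to 3′ on the gene's strand. Capitals mark matches, on either strand, to 6 short motifs: the E2F sites TTTCGCGC and TTTGGCGC, the hypoxia response core ACGTG, the NRF1 site GCATGCGC, the CCAAT box CCAAT and the GC box GGGCGG.
Xrcc5 promoter, chr1:72307171-72307470, plus strand: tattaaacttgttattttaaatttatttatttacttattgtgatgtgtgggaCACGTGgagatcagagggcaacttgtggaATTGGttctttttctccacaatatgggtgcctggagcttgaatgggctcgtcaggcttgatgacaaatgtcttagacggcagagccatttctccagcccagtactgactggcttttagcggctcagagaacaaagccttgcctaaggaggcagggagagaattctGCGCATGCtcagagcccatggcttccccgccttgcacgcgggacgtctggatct
Xrcc6 promoter, chr15:82016119-82016418, plus strand: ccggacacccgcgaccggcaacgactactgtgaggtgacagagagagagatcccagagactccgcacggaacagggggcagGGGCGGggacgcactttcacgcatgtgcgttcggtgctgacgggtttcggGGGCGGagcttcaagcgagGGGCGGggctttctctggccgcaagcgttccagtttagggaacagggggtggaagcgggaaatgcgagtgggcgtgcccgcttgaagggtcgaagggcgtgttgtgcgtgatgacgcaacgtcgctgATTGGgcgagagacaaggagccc
Nhej1 promoter, chr1:75125177-75125476, minus strand: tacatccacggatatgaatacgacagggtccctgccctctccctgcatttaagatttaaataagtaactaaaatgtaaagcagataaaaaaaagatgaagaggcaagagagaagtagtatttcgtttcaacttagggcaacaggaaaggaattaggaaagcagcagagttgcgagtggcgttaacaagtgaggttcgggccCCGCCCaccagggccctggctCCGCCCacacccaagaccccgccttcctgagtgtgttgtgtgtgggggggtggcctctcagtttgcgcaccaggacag
Xrcc4 promoter, chr13:90089559-90089858, minus strand: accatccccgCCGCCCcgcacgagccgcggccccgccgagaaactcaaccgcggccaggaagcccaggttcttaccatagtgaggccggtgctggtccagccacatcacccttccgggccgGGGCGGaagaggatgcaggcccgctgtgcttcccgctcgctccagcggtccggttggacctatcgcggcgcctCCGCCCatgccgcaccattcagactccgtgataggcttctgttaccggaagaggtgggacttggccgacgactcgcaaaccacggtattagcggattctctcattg

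A promoter was listed for 7 of the 8 genes, with 2 for Lig4; Poll was not matched. Xrcc6, Nhej1 and Xrcc4 share GC boxes, with 3, 2 and 3 matches, and Xrcc5 has 0. The GC box is a binding motif of SP1-type factors, and it occurred in 6 of the 7 genes and in 35.7% of all 32851 promoters in the table. Xrcc5 holds an NRF1 motif that begins 4 bases before the start and runs across it. It also holds a CCAAT box and the palindrome in which the hypoxia core reads on both strands, 2 overlapping matches. Of all promoters 2.71% hold the NRF1 motif, 37.4% the CCAAT box and 19.6% the hypoxia core. An NRF1 motif also lies in 1 of the Lig4 promoters, where 2 matches on opposite strands overlap. The E2F motifs were in 0 of the 7 genes, against 0.323% and 0.514% of all promoters. A match is a run of letters in these windows and not a measured binding site. The 3 genes that fell do not hold any of the 6 motifs in common, since Xrcc5 has no GC box and Nhej1 has only GC boxes.

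Xrcc4 and Lig4, whose proteins form the ligation complex, did not pass the test in any comparison. Xrcc4 read 8.60, 8.77, 8.84 and 8.86 log2 in P81S, 8.81, 8.85 and 8.82 in R167Q, and 8.80, 9.03 and 8.83 in wildtype. The groups overlapped in a narrow band. Its log2 difference in P81S against wildtype was -0.12 ± 0.11 (limma adjusted p = 0.459), with a 95% interval of -0.36 to 0.13. The interval leaves room for a level in P81S between 0.779 and 1.09 times that in wildtype.

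Lig4 read 9.18, 9.16, 8.95 and 8.67 log2 in P81S, 8.92, 8.83 and 8.49 in R167Q, and 8.67, 8.72 and 9.07 in wildtype. P81S replicates 1 and 2 were the highest of the 10 arrays, and P81S replicate 4 was level with the lowest wildtype array. The difference against wildtype was 0.17 ± 0.17 log2 (limma adjusted p = 0.475, 95% interval -0.20 to 0.54), and against R167Q 0.25 ± 0.17 (limma adjusted p = 0.341). Of the 7 genes it alone had a positive difference in P81S against wildtype, and that sign depended on replicates 1 and 2 (-0.01 without them).

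**Figure D2:**
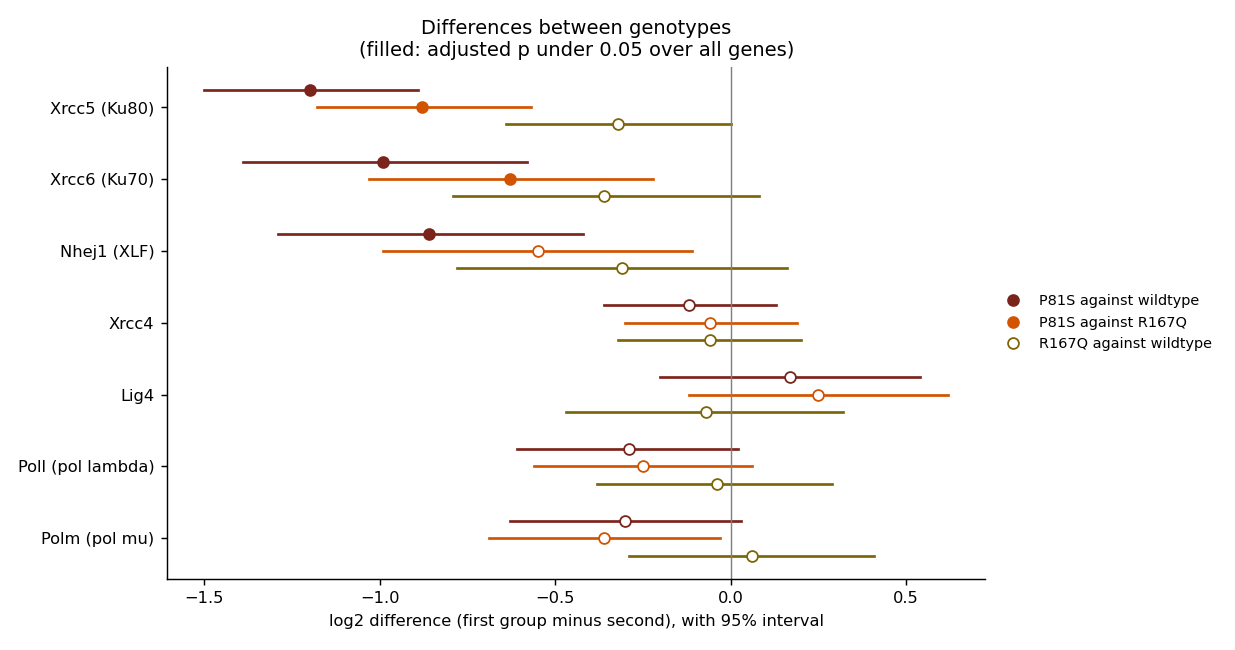
Log2 differences between genotypes (horizontal axis, first group minus second) for the 7 genes, with 95% intervals from the model; filled points have an adjusted p under 0.05 over all genes. Xrcc5 lies at -1.20 and -0.88 in P81S against wildtype and against R167Q, and the points of R167Q against wildtype lie between -0.36 and 0.06 and are all open.

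Poll and Polm encode the gap-filling polymerases lambda and mu. Poll read 6.84, 6.45, 6.76 and 6.51 log2 in P81S, 6.97, 6.82 and 6.87 in R167Q, and 7.02, 6.92 and 6.85 in wildtype. The P81S arrays lay below the wildtype arrays, the highest at 6.84 just under the lowest wildtype array at 6.85, and the difference did not pass (log2 -0.29 ± 0.14, limma adjusted p = 0.138). Polm read 7.60, 7.35, 7.49 and 7.77 log2 in P81S, 7.90, 8.04 and 7.80 in R167Q, and 8.01, 7.93 and 7.62 in wildtype. Its P81S arrays were below all R167Q arrays and overlapped wildtype replicate 3. The difference was -0.30 ± 0.15 log2 against wildtype (limma adjusted p = 0.149) and -0.36 ± 0.15 against R167Q (limma adjusted p = 0.111). Both intervals against wildtype, -0.61 to 0.02 for Poll and -0.63 to 0.03 for Polm, reach from a fall of more than 0.5 log2 to near 0. The other members of their polymerase family did not pass either: Polb, the base excision repair polymerase, differed by 0.39 ± 0.21 log2 in P81S against wildtype (limma adjusted p = 0.178). Dntt, the lymphocyte enzyme that adds bases without a template, had means of 4.0 log2 in P81S, 3.91 in R167Q and 3.90 in wildtype.

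Arrays of P81S and wildtype did not overlap for 4 of the 7 genes (Xrcc5, Xrcc6, Nhej1 and Poll), all lower in P81S, against 20.7% of all genes separated in that direction and 40.6% in either. P81S and R167Q did not overlap for Xrcc5, Xrcc6, Nhej1 and Polm, 4 of 7 and again all lower, against 14.2% of all genes in that direction and 30.7% in either. In P81S against R167Q 2 of the 7 genes passed the test, Xrcc5 and Xrcc6, both lower; 10.1% of all genes were called lower there, 12.4% higher and 22.5% in either direction. The smallest unadjusted p among the 7 genes in R167Q against wildtype was 0.0522, for Xrcc5. The arrays of R167Q and wildtype were apart for Xrcc5 and Xrcc6, 2 of 7, both lower in R167Q, against 12.4% of all genes in that direction and 19.3% in either. The 3 comparisons share arrays, so they are not independent of each other.

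Genes whose products work together were also set against each other within each array. The log2 ratio of Xrcc5 to Lig4, set to 0 at the wildtype mean, was -1.45, -1.40, -1.32 and -1.30 in P81S, -0.42, -0.22 and -0.09 in R167Q, and -0.03, 0.02 and 0.01 in wildtype. Within P81S and within wildtype these ratios varied less than either gene did alone, with SDs of 0.07 and 0.03, and the 3 genotypes did not overlap. The difference between P81S and wildtype was -1.37 log2 (exact two-sided permutation test, p = 0.0286 with 4 against 3 arrays, the smallest this design allows). After adjustment over 18 such tests, from 6 pairs and 3 comparisons chosen after the values were seen, the exact permutation p was 0.129. A pair at the smallest p could pass that adjustment only if most of the 18 tests stood there too. The adjusted test could therefore hardly pass, and it does not decide whether the genes changed unequally. The ratio of Xrcc6 to Lig4 differed by -1.16 log2 in the same comparison, with no overlap of those groups and the same exact permutation p values. Between the Ku genes themselves the ratio of Xrcc5 to Xrcc6 differed by -0.21 log2 (exact permutation p = 0.314), with P81S replicate 1 at 0.21 and replicates 2 to 4 at -0.44 to -0.27. For Nhej1 over Xrcc4 the difference was -0.74 log2 (exact permutation p = 0.114), for Xrcc4 over Lig4 -0.29 (exact permutation p = 0.286) and for Poll over Polm 0.01 (exact permutation p = 0.943). In the comparison of R167Q with wildtype 3 against 3 arrays cannot give a p below 0.1, the value of Xrcc5 over Lig4.

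**Figure D3:**
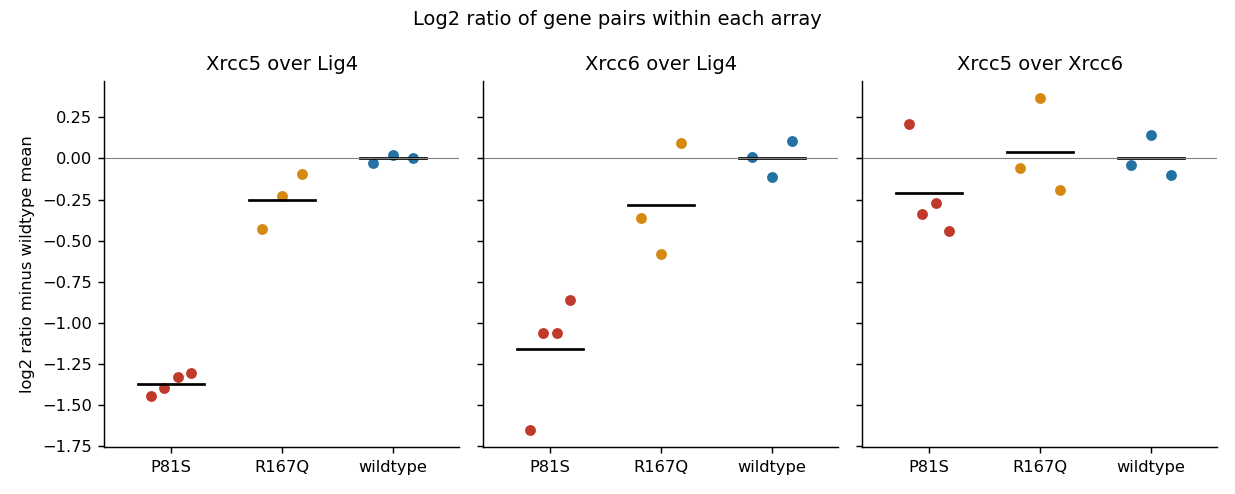
Log2 ratio of 2 genes within each array (vertical axis, set to 0 at the wildtype mean) for Xrcc5 over Lig4, Xrcc6 over Lig4 and Xrcc5 over Xrcc6; points are arrays and bars are group means. Xrcc5 over Lig4 lies at -1.45 to -1.30 in P81S, -0.42 to -0.09 in R167Q and -0.03 to 0.02 in wildtype, while Xrcc5 over Xrcc6 overlaps between all groups.

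Lig4 and Polm lie on chromosomes whose median gene stood away from 0 in P81S arrays, on chromosome 8 in all 4 and on chromosome 11 in 2 of them. Set against the mean of the R167Q and wildtype means, the median of the brighter genes of chromosome 8, which holds Lig4, was 0.14, 0.19, 0.13 and 0.15 log2 in P81S replicates 1 to 4. Lig4 itself deviated by 0.40, 0.38, 0.17 and -0.11 in those arrays, so it lay above its chromosome in replicates 1 and 2 and below it in replicate 4. For chromosome 11, which holds Polm, the medians were -0.36, -0.35, -0.02 and -0.02, and Polm deviated by -0.28, -0.54, -0.39 and -0.12. Polm was lowest in replicate 2, where the chromosome median was low, and nearest to 0 in replicate 4, where it was level. Replicates 1 and 3 lay between them in the opposite order to the chromosome. Polm was lower in replicate 3 (-0.39, chromosome -0.02) than in replicate 1 (-0.28, chromosome -0.36). The part of the chromosome shift in the Polm level was not tested beyond the subtraction given next. With each gene's chromosome median subtracted in every array, an alternative added after the data were seen, the P81S against wildtype difference was 0.01 log2 for Lig4 and -0.11 for Polm, and 3 of the 7 genes were called. Xrcc5 and Nhej1 on chromosome 1, Xrcc6 on 15, Xrcc4 on 13 and Poll on 19 sat on chromosomes with P81S medians of -0.08 to 0.07.

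**Figure D4:**
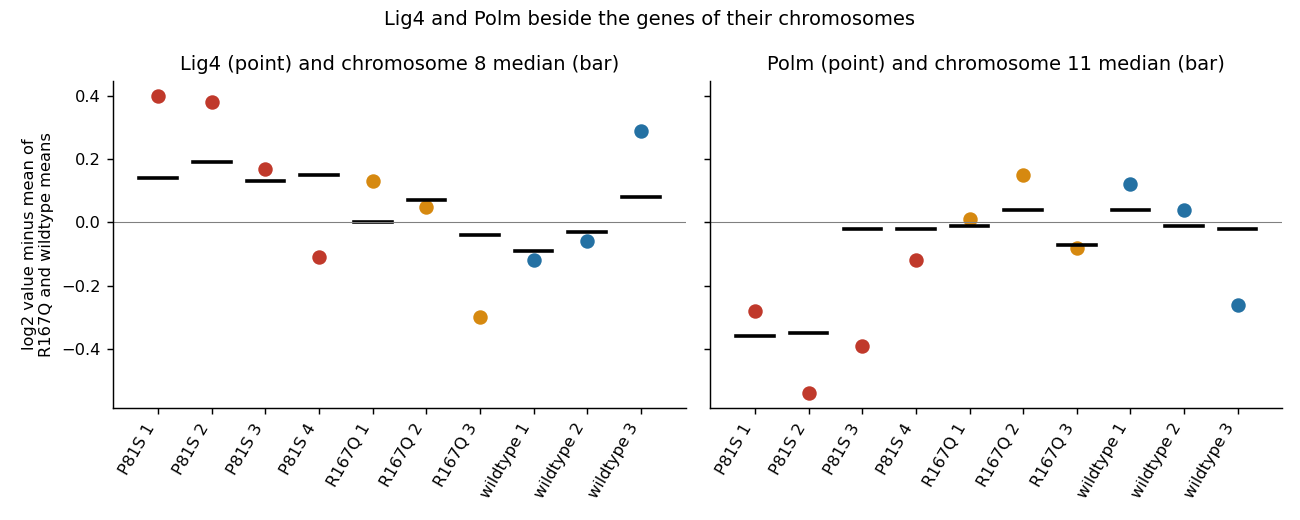
Deviation of Lig4 and Polm (points) and of the median brighter gene of chromosomes 8 and 11 (bars) from the mean of the R167Q and wildtype means, in log2 (vertical axis), for each array. Chromosome 11 stands at -0.36 and -0.35 in P81S replicates 1 and 2 and at -0.02 in replicates 3 and 4, and Polm stands at -0.28, -0.54, -0.39 and -0.12 in replicates 1 to 4.

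Of 15 measured end joining partners out of 18 listed, 6 fell, 2 rose and 7 did not pass in P81S against wildtype, with a median of -0.19 log2, where 17.5% of all genes fell and 17.2% rose. The share of partners that rose was thus no higher than that of all genes. Prkdc, the catalytic subunit of DNA-PK that Ku recruits, fell 1.86-fold (log2 -0.89 ± 0.16, limma adjusted p = 0.0014). Paxx, another relative of XRCC4 that binds Ku, rose 1.70-fold, with means of 9.44 log2 in P81S and 8.68 in wildtype (log2 0.77 ± 0.17, limma adjusted p = 0.00432). It therefore went the opposite way to Nhej1. The Trp53bp1 protein shields broken ends from resection and Rif1 acts through it; Trp53bp1 rose (log2 0.56 ± 0.11, limma adjusted p = 0.00203) and Rif1 fell (-1.39 ± 0.16, limma adjusted p = 0.000113). Shld2, a shieldin subunit of the same branch, fell by 0.73 ± 0.16, while Shld1 and Mad2l2 differed by -0.18 and -0.15 and did not pass. Tdp2, which clears trapped topoisomerase from ends, had a log2 difference of -1.40 ± 0.14, Tdp1 of -0.45 ± 0.13 and Mdc1, a scaffold at breaks, of -0.72 ± 0.15, all called lower. The ubiquitin ligase genes Rnf8 and Rnf168 (-0.07 and -0.14), the end-processing Aptx and Aplf (-0.19 each) and the helicase gene Wrn (-0.24) did not pass. Against R167Q the counts were 4 lower, 2 higher and 9 not passing, where 10.1% of all genes were lower and 12.4% higher. In R167Q against wildtype 0 of 15 passed in limma, where 0.0903% of all genes did. At an unadjusted p under 0.05 there was 1, Tdp2, with a limma adjusted p of 0.375.

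The pathways that compete with end joining for the same breaks were lower in P81S across most of their measured genes. In alternative end joining, which pairs short homologies, 6 of 7 measured genes of 8 listed fell and 0 rose in P81S against wildtype. Their median was -1.0 log2, and 17.5% of all genes fell and 17.2% rose in that comparison. Polq, the polymerase that defines this route, fell by 0.80 ± 0.23 on the log2 scale, the ligase gene Lig3 by 1.0 ± 0.14 and Parp1, a break sensor, by 1.03 ± 0.19. The other DNA ligase gene, Lig1, fell by 1.09 ± 0.20, so that of the 3 DNA ligase genes Lig4 was the 1 that did not pass. In homologous recombination 15 of 16 measured genes of 19 listed fell and 0 rose, with a median of -1.46 log2; Rad50, Brca1 and Rad54l had the smallest p, with log2 differences of -1.61 ± 0.16, -1.91 ± 0.24 and -1.49 ± 0.19. The difference between these lists and the end joining core was not tested, and the lists were chosen with earlier results of these data known. Against R167Q, 5 of 7 and 13 of 16 genes of the 2 pathways were lower, where 10.1% of all genes were. In R167Q against wildtype 0 of either passed in limma, where 0.0903% of all genes did. There 0 and 3 had an unadjusted p under 0.05.

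**Figure D5:**
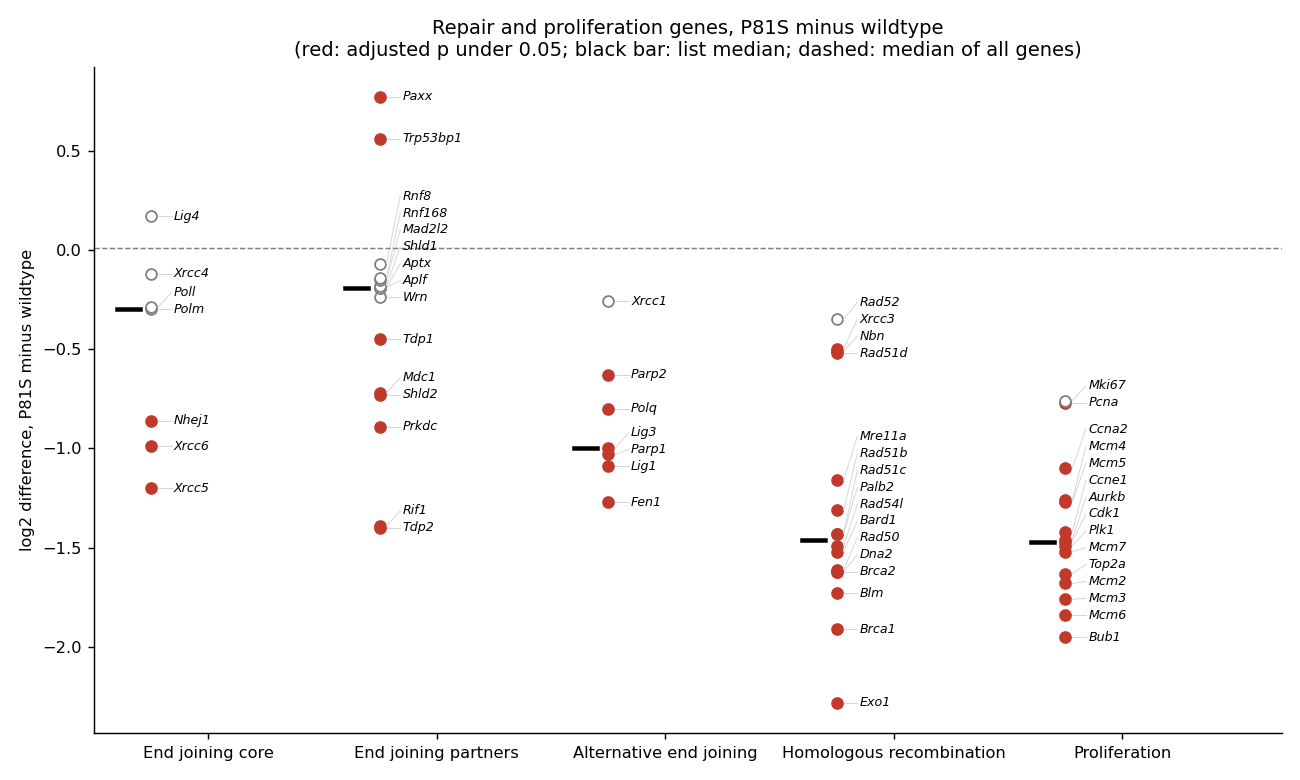
Log2 differences in P81S minus wildtype (vertical axis) for each measured gene of 5 lists; red points have an adjusted p under 0.05 over all genes, black bars are list medians and the dashed line is the median of all genes. The end joining core has a median of -0.30, its partners -0.19, alternative end joining -1.0, homologous recombination -1.46 and proliferation genes -1.47.

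Markers of cell state and tissue moved in the same arrays. For the counts that follow, 17.5% of all genes were called lower and 17.2% higher in P81S against wildtype. The mean of 15 measured proliferation genes was 8.85 to 10.05 log2 in P81S, 10.62 to 10.85 in R167Q and 10.93 to 11.24 in wildtype, and 14 of the 15 were called lower in P81S against wildtype. The mean of 12 pluripotency genes was 5.93 to 7.67 in P81S, 8.91 to 9.93 in R167Q and 9.86 to 10.60 in wildtype, with all 12 called lower. The lowest P81S array was replicate 4 in both lists and in Xrcc5, replicate 1 in Xrcc6 and replicate 3 in Nhej1. Neural genes went the other way, at 11.77 to 12.16 in P81S, 10.96 to 11.60 in R167Q and 10.80 to 11.12 in wildtype, and 7 of 8 were called higher. The mesenchyme, muscle and cartilage list had group means of 8.57 log2 in P81S, 8.73 in R167Q and 8.31 in wildtype. Its P81S arrays ranged from 7.73 to 9.23, and 1 of its 10 genes was called higher in P81S against wildtype. The squamous epithelium list averaged 7.04 in P81S, with replicate 1 at 9.14 and the others at 6.19 to 6.58, 6.38 in R167Q and 6.39 in wildtype. The gut and endoderm list averaged 6.51 in P81S, 6.50 in R167Q and 6.57 in wildtype. Its P81S replicate 1 stood at 7.41 and the other P81S arrays at 5.95 to 6.56. Of its 10 genes, 2 (Afp at -1.64 log2 and Cdx2 at -0.49) were called lower in P81S against wildtype, beside 17.5% of all genes. Apart from the P81S squamous mean, the squamous and gut group means lay below the array medians of all probe sets, 6.97 to 7.11. Some of their genes stood higher, such as Foxa2 at 8.41 in P81S, 8.84 in R167Q and 8.68 in wildtype. Without a detection limit the deposited values do not show whether those tissues were present. Lymphocyte genes had the lowest list means, 4.96 to 5.10 log2 in P81S, 5.08 to 5.10 in R167Q and 5.12 to 5.25 in wildtype. Of 11 measured, 2 (Cd79b and Cd3e) were called lower in P81S against wildtype, a share near the 17.5% of all genes. Macrophage genes, which would come from the host, were at 8.57 to 9.32 in P81S, 8.75 to 9.40 in R167Q and 8.51 to 8.87 in wildtype, and 0 of 8 were called in any comparison (limma; 2 in each at an unadjusted p under 0.05). What part the proliferating, pluripotent or neural cells had in the lower Ku and Nhej1 levels was not tested.

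For each called member, the 2 genes closest to it were found by the root mean square distance between values centred on each gene's own mean over the 10 arrays. Nol9 and Ppwd1 were nearest to Xrcc5, at 0.10 and 0.101 log2, against a spread of Xrcc5 itself of 0.54. Ddx27 and Fam169a were nearest to Xrcc6, at 0.089 and 0.109 (own spread 0.47), and Gabpa and Tmtc3 to Nhej1, at 0.106 and 0.114 (own spread 0.43). Their differences in P81S against wildtype ran from -1.21 log2 (Nol9) to -0.70 (Tmtc3). No member was among the nearest genes of another.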

How the data were processed

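Each teratoma was read on an Affymetrix array of its own, and the deposited table held log2 expression values per probe set. RMA and Partek are the tools listed, per the submitters' processing notes, with no version or setting; the exact normalization is not given in the sources used here. Array medians lay between 6.97 and 7.11 log2. All 10 value columns were used, and precision is limited by that number.

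Of 35556 probe sets, 21218 carried 1 gene in the platform's annotation. The brightest one per gene on average was kept, which left 18820 genes; chromosomes and promoters came from RefSeq tables of GRCm38.p6. A model of 3 group means over all arrays was fitted by limma 3.58.1 in R 4.3.3 (lmFit, eBayes with trend), with Benjamini-Hochberg adjustment across all genes. The two-sided tests used 7 residual and 3.85 prior degrees of freedom. The fit was also run on simulated data with independent noise between arrays, which held neither clones nor widespread change. The labels call the replicates biological without saying whether they are separate cultures or hosts, so p-values measure the spread between these tumours alone; clone and genotype cannot be told apart. Members and gene lists were chosen with earlier results of these data known. All members were named, any gene of the partner, alternative end joining and polymerase lists, up to 3 genes of smallest p from other lists, and 2 nearest genes per called member. Alternatives changed the normalization, dim-gene filter, probe set choice, variance model, samples in the fit, replicate or clone block, and arrays included.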

Additional observations from a re-analysis of the deposited data

Results flagged for a closer look

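Among the 7 genes, 12 other list means and 6 pair ratios, 25 sets of values in all, 2 held a P81S array far from the other 3 by Dixon's criterion, and chance alone gives about 1 in 20. The mean of the squamous epithelium list was 9.14 log2 in P81S replicate 1, against 6.19 to 6.58 in replicates 2 to 4. The mean of the neural list was 11.77 in P81S replicate 1, against 12.10 to 12.16 in the others. None of the 7 end joining genes was flagged, although P81S replicate 1 had the lowest Xrcc6 value, 7.24 log2. Without that array Xrcc5, Xrcc6 and Nhej1 were still the genes called lower in P81S against wildtype.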

How the results depend on the processing

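In P81S against wildtype, Xrcc5 and Xrcc6 were called lower under all 25 alternatives, with adjusted p from 5.47e-05 to 0.00151 and from 0.00107 to 0.0145. Nhej1 was called lower under 23 of 24. It was not tested where genes below the median level were left out. Xrcc5 and Xrcc6 had their lowest adjusted p with P81S replicates 1 and 3, and 2 and 4, blocked as clones. The fitted correlation within that block was -0.23, and the other pairings gave 0.047 and -0.029. Standard errors were smaller under it, 0.13 and 0.17 log2 for Xrcc5 and Xrcc6 against 0.14 and 0.18 in the main fit. In R167Q against wildtype 0 of the 7 genes were called under all 20 alternatives. In P81S against R167Q, 1 of the 7 genes (Xrcc5) was called in place of 2 with the replicate number as a block (replicate block, adjusted p = 0.0765 for Xrcc6) and with P81S replicates 3 and 4 left out; leaving out single arrays gave 1 to 2. Nhej1 passed in that comparison in 4 of 24 alternatives, among them the clone block with correlation -0.23 (limma adjusted p = 0.0479). The replicate block changed no other call, and same-numbered arrays did not deviate together (r from -0.278 to 0.212), so the numbers were not taken as pairs. Replicate number 4 occurs only in P81S, so the block takes up that array. Its differences equal those without P81S replicate 4 (Xrcc6 against R167Q -0.62 log2 in both), and it is not a separate check.

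Over all genes, R167Q against wildtype gave 17 calls, but 3 without genes below the median level, 28 with every probe set tested, 26 with only the 2 groups compared, and 5 to 21 without single arrays. P81S against R167Q gave 4234 calls, but 2419 with P81S replicates 3 and 4 left out and 2328 to 4916 without single arrays, the lowest without R167Q replicate 1. Differences near 0 turned sign: with P81S replicates 1 and 2 left out, Lig4 was at -0.01 against wildtype and Xrcc4 at 0.03 against R167Q. In R167Q against wildtype, leaving out single arrays gave -0.10 to 0.01 for Xrcc4, -0.16 to 0.06 for Lig4 and -0.05 to 0.14 for Polm. Where fewer arrays or genes entered a fit, counts also moved for that reason; other causes were not tested. Signal over background could not be read from the deposited values, so dim genes have no detection limit here.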

Other observations

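Cyren, an inhibitor of end joining in cycling cells, shares both of its probe sets with Tmem140, so neither entered a test. The first read 6.53, 5.71, 6.02 and 6.21 log2 in P81S, 6.53, 6.88 and 7.07 in R167Q, and 6.49, 6.51 and 6.47 in wildtype. The second read 6.08, 6.64, 6.53 and 6.67 log2 in P81S, 6.87, 6.77 and 6.77 in R167Q, and 6.85, 6.89 and 6.68 in wildtype, where the P81S arrays lay lowest.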
